A study of Homo sapiens and Mus musculus with 55 samples.

Results

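The 10 genes described here encode proteins that bind microtubules or their tubulin subunits: MAPT, MAP1A, MAP1B, MAP2, MAP4, MAP7, STMN1, STMN3, MAPRE1 and CKAP5. The set is defined by gene name and function, with no threshold on a measured value. All 10 had a row in each of the 8 human tables, and 9 of the 10 had a row in each of the 2 mouse tables, among 67107 gene names over all tables of both species. Mouse Stmn3 was not analysed here.

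Microtubules are polymers of tubulin that grow and shrink at their ends. Structural microtubule-associated proteins lie along the polymer wall and stabilize it: MAPT (tau), MAP1A, MAP1B and MAP2 are best known from neurons, and MAP4 is the widely expressed relative of tau and MAP2. MAP7 links the polymer to conventional kinesin. Stathmins do the opposite: STMN1 (stathmin) and STMN3, a relative best known from neurons, bind free tubulin and favour shrinkage. MAPRE1 (EB1) rides on growing plus ends, and CKAP5 (ch-TOG) adds tubulin there and is needed for the mitotic spindle.

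The series, by its title, concerns MYC and the innate immune sensor adaptor STING in triple-negative breast cancer, a form without hormone receptors or HER2 amplification. RNA sequencing was run on 55 libraries from 4 cell lines: the human triple-negative lines MDA-MB-436 and SUM159PT, with 2 libraries per group, and the mouse mammary tumour lines 4T1 and Py230, with 3 per group. Each experiment was deposited as a table of its own, normalized alone. Whether the replicates of a group came from different cultures is not stated, so the p-values measure only the spread between these libraries, which may be technical. In the first design, untreated parental cells (Par) were compared with untreated Tax-R cells of the same line, a name the sources used here do not spell out. The second design used siRNA, in Tax-R cells of both human lines and in 4T1: a control siRNA, or 1 of 2 MYC siRNAs (siMYC1, siMYC2), short RNAs meant to destroy the MYC transcript. In the third, MDA-MB-436 and SUM159PT cells labelled Par_for_CRISPR with a mock genotype were compared with cells carrying a STING sgRNA, a guide for the nuclease Cas9, in 2 groups labelled C1 and C2. Whether C1 and C2 are clones or guides is not stated. In the fourth, all cells of both human lines carried the STING sgRNA, and an open reading frame (ORF) of STING was added in one group and of GFP in the other. In the fifth, all Py230 cells carried a Sting1 shRNA and received doxycycline or vehicle. No group carried doxycycline without that shRNA, so an effect of the drug and an effect of the shRNA cannot be told apart.

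Library depth was 5663610 to 13191675 reads. The 2 MDA-MB-436 Tax-R libraries differed by less than the sampling noise over all 20795 genes checked (chi-square per gene 0.855) but by more than it over the 91 genes with the most reads (9.02), and may be 1 sample. Their values are given singly below, and the adjusted p-values count them as 2 libraries. If they are 1 sample, those p-values hold no spread between Tax-R samples of this line. The gene for STING, TMEM173 in these tables, ran from 158 to 183 in MDA-MB-436 mock cells against 41.7 to 55.1 with the sgRNA, and from 229 to 261 against 92.7 to 114 in SUM159PT. With the STING ORF it rose from between 21 and 32.1 to between 579 and 614 in MDA-MB-436 and from between 65.4 and 81.1 to between 1455 and 1599 in SUM159PT. In Py230 it lay at 768 to 886 with vehicle and at 42.9 to 48.3 with doxycycline. MYC mRNA with MYC siRNA fell clearly in SUM159PT alone: 2663 to 2727 against 1426 to 1538. It lay at 2019 to 2058 against 1897 to 1930 in MDA-MB-436, a log2 change of -0.09 (limma adjusted p = 0.014, DESeq2 adjusted p = 0.11). In 4T1 it lay at 2390 to 2595 against 2220 to 2407, which overlap (limma adjusted p = 0.068), so the transcript is a weak check of the MDA-MB-436 labels and does not check those of 4T1. Of the breast epithelial markers, KRT8 and KRT18 were high in all human tables while CDH1 had no row or a table mean of at most 3.7, and the mesenchymal markers VIM and FN1 were high. 4T1 and Py230 had table means of CDH1 of 6083 and 4687. Of the 12 neuronal markers, NEFL, NEFM, NEFH, GAP43, ELAVL3 and ELAVL4 had no row or table means of 7.2 or lower in the human tables. TUBB3 and ENO2 averaged over 10 in all 8 human tables, SYP in 7, SNAP25 in 5, SYN1 in 3 and RBFOX3 in 2. The leukocyte marker PTPRC (CD45) had a table mean of 1178 in the MDA-MB-436 Tax-R experiment and 1181 in its sgRNA experiment, with CD3E at 0.6 or with no row. In the siRNA experiment on MDA-MB-436 Tax-R cells the table mean of PTPRC was 2.3, with controls at 0 to 1.94. The MDA-MB-436 Tax-R libraries of the first design lay at 242 to 376, so cells with this label differed between experiments. The reason was not tested.

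Levels of different genes were set side by side per length, as reads per kilobase of exon, scaled to library depth (RPKM), in parental and mock cells. The length joins all annotated exons of a gene, 6261 bases for STMN1 and 2623 for MAPRE1. The transcripts these cells use may be shorter, which would understate a gene. The order between genes therefore holds for this length only. MAPRE1 stood first in all 4 groups, with 49.3 and 52.1 in the 2 parental groups and 89.3 and 83.6 in the 2 mock groups. CKAP5 came next in 3 of them (40.4, 53.7 and 41.9), and in SUM159PT mock cells it followed STMN1 (53.0) at 45.6. MAP4 ranged from 22.2 to 39.5 and STMN1 from 17.7 to 53.0. These 4 genes lay above MAP1A, MAP7 and MAPT in every group. MAPT was last in 3 of the 4 groups, with 0.285 in MDA-MB-436 parental and 0.0453 and 0.0186 in SUM159PT parental and mock cells. In MDA-MB-436 mock cells MAP2 was last at 0.138, below MAPT at 0.209. The lines had different profiles: MAP2 was at 0.941 and 0.138 in the MDA-MB-436 groups and at 21.2 and 13.9 in the SUM159PT groups, while STMN3 was at 14.3 and 14.1 against 1.18 and 0.751. The difference between lines was not tested because no fit joined the tables. Parental and mock cells of a line also came from separate experiments that differed in other genes. The normalized value of VIM averaged 1261 in MDA-MB-436 parental and 14797 in mock cells, and 1105 and 12498 in SUM159PT. The reason was not tested. Neighbours in the order did not overlap between libraries, but MAP4 and MAP2 (22.2 and 21.2), and STMN1 and MAP1B (18.9 and 18.1), in SUM159PT parental cells are hardly separated by 2 libraries each.

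In MDA-MB-436 Tax-R cells, 2 members were higher and 3 lower of 10 tested (of all genes tested 54.6% passed at a limma adjusted p below 0.05, 27.7% higher and 26.9% lower). In SUM159PT 3 were higher and 3 lower of 10 (45.7% of all genes, 23.5% higher and 22.1% lower). Those shares are near the background. In both lines MAP1A was called higher and STMN3 and MAP2 lower. The median log2 change of the members was -0.00 in MDA-MB-436 and 0.05 in SUM159PT. Over all genes the median lay between -0.01 and 0.01 in every comparison with a control group.

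STMN3 had the largest change among members in MDA-MB-436. Its normalized values were 494 and 482 in parental cells and 49.0 and 69.8 in Tax-R cells, a log2 change of -3.04 ± 0.14 (SE, limma adjusted p = 1.4e-08). In SUM159PT it fell from 42.7 and 35.8 to 17.4 and 20.8 (-1.0 ± 0.23, limma adjusted p = 0.0066). Both groups stayed apart in both lines. The SUM159PT call was lost with DESeq2 (adjusted p = 0.11) and without the first parental library (limma adjusted p = 0.057).

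MAP1A was at 337 and 339 in MDA-MB-436 parental cells and at 547 and 527 in Tax-R cells (0.67 ± 0.05, limma adjusted p = 1.0e-06). In SUM159PT it rose from 110 and 104 to 367 and 411 (1.85 ± 0.09, limma adjusted p = 3.4e-07). Every Tax-R library lay above every parental library of its line. MAPT, the gene for tau, moved in SUM159PT from 8.13 and 6.71 to 69.6 and 71.3 (3.09 ± 0.24, limma adjusted p = 6.4e-06). In MDA-MB-436 it was at 42.6 and 53.0 against 61.1 and 62.6 and did not pass (0.37 ± 0.17, limma adjusted p = 0.082), though it passed after quantile normalization (0.62, limma adjusted p = 0.014).

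MAP2 lay at 113 and 131 in MDA-MB-436 parental cells and 66.1 and 93.4 in Tax-R cells (-0.63 ± 0.16, limma adjusted p = 0.0065). This call was lost without either parental library (limma adjusted p = 0.075 and 0.17) and after quantile normalization (0.070). In SUM159PT, where MAP2 is abundant, it fell from 2616 and 2755 to 1109 and 1107 (-1.28 ± 0.04, limma adjusted p = 1.7e-08), with no overlap. MAP7 fell there too, from 166 and 162 to 37.8 and 27.7 (-2.30 ± 0.18, limma adjusted p = 6.2e-06), while in MDA-MB-436 its 124 and 138 against 121 and 117 did not pass. MAP1B showed the reverse sign in SUM159PT, at 2417 and 2617 in parental and 4232 and 4251 in Tax-R cells (0.75 ± 0.04, limma adjusted p = 9.4e-07). In MDA-MB-436 its groups overlapped.

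The log2 changes of MAP4, STMN1, MAPRE1 and CKAP5 lay between -0.17 and 0.20 in both lines. MAP4 fell in MDA-MB-436 from 3932 and 4272 to 3645 and 3629 (-0.17 ± 0.04, limma adjusted p = 0.0047). STMN1 rose there from 1221 and 1268 to 1429 and 1429 (0.20 ± 0.04, limma adjusted p = 0.00079), a call that DESeq2 did not give (adjusted p = 0.051). MAPRE1 and CKAP5 passed in neither line. CKAP5 passed in both after quantile normalization, with log2 changes of -0.11 and -0.15.

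**Figure D1:**
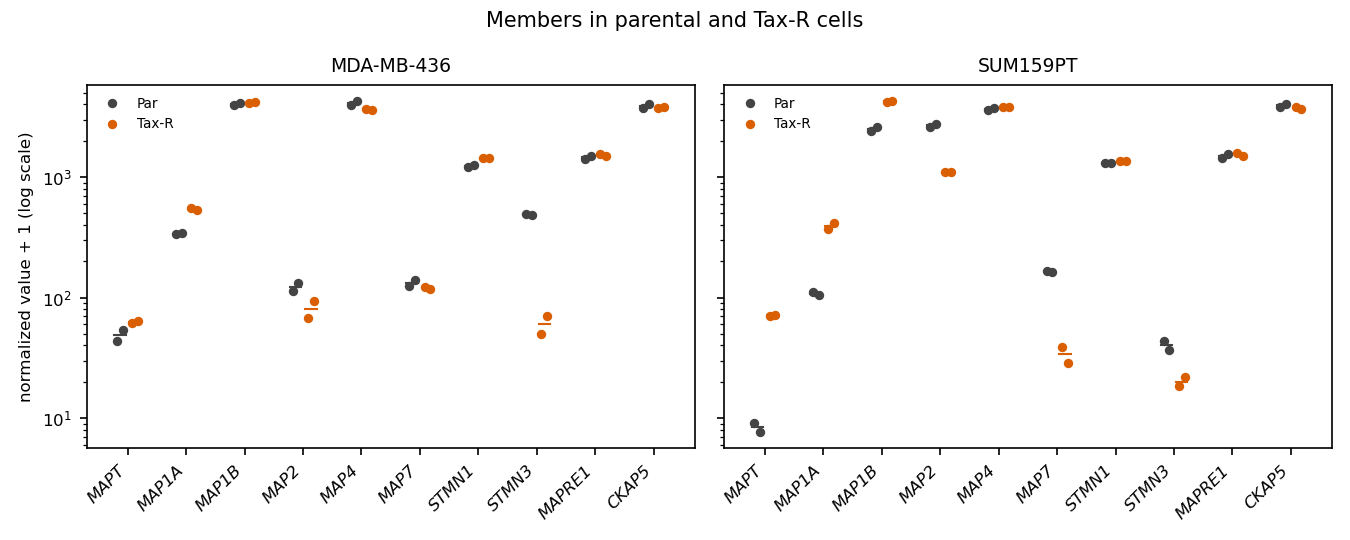
Normalized value plus 1, on a log scale, of the 10 genes in parental (grey) and Tax-R (orange) libraries of MDA-MB-436 and SUM159PT, with 1 point per library and a line at the group mean. The grey and orange points of STMN3 and MAP1A are apart in both panels, and those of MAPT, MAP1B, MAP2 and MAP7 are far apart in SUM159PT.

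Among other microtubule genes, kinases that phosphorylate tau and related proteins stood out by MARK1, which went from a mean of 43.6 to 409.8 in MDA-MB-436 (3.21 ± 0.10) and from 124 to 489 in SUM159PT (1.97 ± 0.09). Of the 11 listed kinases 5 were higher and 4 lower in MDA-MB-436, and 3 higher and 4 lower in SUM159PT. Of structural relatives of the members 6 were higher and 6 lower of 16 tested in MDA-MB-436, and 7 higher and 5 lower of 15 in SUM159PT. EML1 rose in MDA-MB-436 from 77.4 to 601 (2.94 ± 0.09), and MAP7D2, a paralog of MAP7, fell in SUM159PT from 268 to 12.6 (-4.31 ± 0.19). The severing subunit gene KATNAL1 rose in both, by 0.43 and 0.61. Of 12 tubulin-modifying enzymes 7 were higher and 1 lower in MDA-MB-436, and 6 higher and 2 lower in SUM159PT. PTPRC was at 1982 to 2113 in MDA-MB-436 parental and 242 to 376 in Tax-R libraries, and at 518 to 548 against 3.96 to 6.14 in SUM159PT, with CD14 lower too. Of the neuronal markers 1 was higher and 4 lower of 6 tested in MDA-MB-436, where SYP, SNAP25, TUBB3 and SYN1 fell, and 1 was higher and 2 lower of 5 in SUM159PT. Of 8 proliferation genes 3 were higher and 0 lower in MDA-MB-436, and 2 higher and 1 lower in SUM159PT. Their part in the members' changes was not tested. In bulk RNA, fewer cells with a transcript and less of it per cell cannot be told apart.

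Before the MYC siRNA values, promoter stretches of 4 members are shown, because MYC binds the E-box CACGTG: the 3 members called lower with MYC siRNA in both human lines (STMN1, MAPRE1 and CKAP5) and, of those called higher in both, MAP1A. These 4 were chosen after their values were seen. The 250 bases before each start were taken from RefSeq (GRCh38.p14), and 9 members had at least 1 such window, 19 in all. Both strands were searched. The E-box CACGTG was found in 6.34% of 35116 windows of the same length over all genes, the CCAAT box in 32% and a cell-cycle promoter element spelled TTTGAA in 13.3%. Among the members' windows the E-box was found only in 1 of the 3 of STMN1, with 2 matches, and in that of MAPRE1, with 1 match. The CKAP5 window held 2 CCAAT boxes and 1 cell-cycle element, the MAP1A window shown held 2 CCAAT boxes, and the STMN3 window held none of the 3 motifs. The CCAAT box was also found in windows of STMN1, MAPRE1, MAP2, MAP4 and MAP7. The cell-cycle element was also found in windows of MAP1B, MAP4 and MAP7, and MAP1B was called higher with MYC siRNA in both human lines. For each of the 4 genes the window with the most E-boxes, then the most CCAAT boxes, is shown. Bases inside annotated exons of coding genes are left out, which drops 1 E-box of STMN1 and 1 CCAAT box each of CKAP5 and MAP1A. The windows of MAP1B and STMN3, also called higher in both, are not printed, and no window of MAPT was used here. Capitals mark the 3 motifs on either strand.
STMN1, chr1:25906467-25906669 (minus strand): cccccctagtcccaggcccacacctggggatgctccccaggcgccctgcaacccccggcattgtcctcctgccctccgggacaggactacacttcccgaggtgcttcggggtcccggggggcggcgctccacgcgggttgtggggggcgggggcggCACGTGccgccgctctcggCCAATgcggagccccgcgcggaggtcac
MAPRE1, chr20:32819704-32819776 (plus strand): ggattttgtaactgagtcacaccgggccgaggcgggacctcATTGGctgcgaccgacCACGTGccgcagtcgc
CKAP5, chr11:46846309-46846530 (minus strand): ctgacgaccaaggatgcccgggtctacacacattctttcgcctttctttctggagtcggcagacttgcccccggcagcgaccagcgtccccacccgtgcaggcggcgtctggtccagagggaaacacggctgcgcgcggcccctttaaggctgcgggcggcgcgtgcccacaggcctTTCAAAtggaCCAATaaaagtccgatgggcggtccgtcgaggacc
MAP1A, chr15:43510729-43510953 (plus strand): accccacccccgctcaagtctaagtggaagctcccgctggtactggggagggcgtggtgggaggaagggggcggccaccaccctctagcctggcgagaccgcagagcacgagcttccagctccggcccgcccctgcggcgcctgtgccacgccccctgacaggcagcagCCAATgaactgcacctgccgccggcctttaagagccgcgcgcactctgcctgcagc
A match is a description of these letters and shows no binding.

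With MYC siRNA in Tax-R cells of both human lines, STMN1, MAPRE1 and CKAP5 fell and MAPT, MAP1A, MAP1B and STMN3 rose. In MDA-MB-436, 7 of 10 members were higher and 3 lower (67.7% of all genes passed, 34% higher and 33.7% lower), and in SUM159PT 4 were higher and 4 lower of 10 (69.5% of all genes, 35% higher and 34.5% lower). The median of the members was 0.59 in MDA-MB-436 and 0.03 in SUM159PT, where it was -0.16 after quantile normalization. The shares called are read against those backgrounds.

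STMN3 had close to the same change in both lines. In MDA-MB-436 the controls were at 36.2 and 30.1, the siMYC1 libraries at 120 and 110, and the siMYC2 libraries at 118 and 125 (1.81 ± 0.14, limma adjusted p = 2.0e-12). In SUM159PT it was at 106 and 82.8, then 368 and 323, then 322 and 314 (1.81 ± 0.09, limma adjusted p = 1.7e-22). The same gene had fallen in Tax-R against parental cells in separate tables. Not all members changed sign in this way. MAP1A was called higher in both contrasts in both lines, as were MAPT and MAP1B in SUM159PT. MAP2 was called lower in both contrasts in SUM159PT, while MAP2, MAP4 and STMN1 changed sign in MDA-MB-436. MAP1A was at 74.6 and 72.8 in MDA-MB-436 controls and between 227 and 232 in all 4 MYC siRNA libraries (1.63 ± 0.09, limma adjusted p = 4.0e-15). In SUM159PT it rose from 22.1 and 31 to 181, 199, 190 and 219 (2.86 ± 0.13, limma adjusted p = 2.4e-24), the largest rise of a member in that line. For STMN3 and MAP1A every MYC siRNA library exceeded every control.

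MAPT rose in SUM159PT from 97.1 and 64.2 to 115, 157, 131 and 145 (0.78 ± 0.14, limma adjusted p = 1.8e-06). In MDA-MB-436 it was low, at 24.5 and 22.3 against 30.4 to 40.2 (0.61 ± 0.21, limma adjusted p = 0.012), and that call was lost with DESeq2 (adjusted p = 0.14), after quantile normalization (limma adjusted p = 0.051), without the second control library (0.069) and with siMYC1 alone (0.060). MAP1B was at 1239 and 1262 against 2049, 2255, 2166 and 2139 in MDA-MB-436 (0.78 ± 0.04, limma adjusted p = 5.0e-17), and at 811 and 842 against 879 to 944 in SUM159PT (0.16 ± 0.05, limma adjusted p = 0.0062). The groups did not overlap in either line.

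MAP2 had opposite signs in the 2 lines, a difference that was not tested. In SUM159PT it fell from 880 and 1002 to 694, 685, 731 and 730 (-0.40 ± 0.06, limma adjusted p = 1.4e-08). In MDA-MB-436, where few reads carried it, it was at 22.4 and 23.3 against 30.3 to 42.3 (0.58 ± 0.22, limma adjusted p = 0.020), a call lost with DESeq2 (adjusted p = 0.18), with no filter on low values (limma adjusted p = 0.052), after quantile normalization (0.081), with siMYC1 alone (0.069), and without the first control (0.078), the second control (0.052) or the second siMYC2 library (0.091). MAP7 rose in MDA-MB-436 from 42.6 and 48.5 to 116, 107, 138 and 104 (1.33 ± 0.14, limma adjusted p = 1.4e-09). In SUM159PT it stayed near 10, with overlapping groups. MAP4 rose in MDA-MB-436 from 3626 and 3584 to between 4251 and 4363 (0.26 ± 0.02). In SUM159PT its groups overlapped and it did not pass (-0.01 ± 0.03), except after quantile normalization (-0.18, limma adjusted p = 3.3e-06).

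STMN1, CKAP5 and MAPRE1 fell in both lines. In SUM159PT STMN1 was at 1851 and 2078 with control siRNA and at 804, 837, 872 and 814 with MYC siRNA (-1.24 ± 0.05, limma adjusted p = 2.3e-26). In MDA-MB-436 it was at 2271 and 2235, then 1739 and 1726 with siMYC1, then 1969 and 1955 with siMYC2 (-0.29 ± 0.03, limma adjusted p = 4.8e-09). The libraries of the 2 siRNAs were apart: siMYC2 lay above siMYC1 by 0.18 ± 0.04 (limma adjusted p = 0.029), the 1 member so called where 0.195% of all genes passed, and this call was lost with no filter on low values and when any 1 of the 4 MYC siRNA libraries was left out. CKAP5 fell from 2285 and 2492 to 1210, 1148, 1142 and 1086 in SUM159PT (-1.06 ± 0.05, limma adjusted p = 2.7e-25) and from 2691 and 2683 to between 1994 and 2184 in MDA-MB-436 (-0.37 ± 0.03, limma adjusted p = 1.4e-11). MAPRE1 fell from 848 and 842 to between 564 and 616 in SUM159PT (-0.53 ± 0.06) and from 1622 and 1605 to between 1345 and 1433 in MDA-MB-436 (-0.21 ± 0.04). None of these groups overlapped, and the difference in size between lines was not tested. In SUM159PT 0 of 10 members and 0% of all genes differed between siMYC1 and siMYC2 by limma, with 0 members at an unadjusted p below 0.05 and 0 by edgeR or DESeq2.

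Proliferation genes moved with these 3 members. All 8 on the list (MKI67, TOP2A, CCNB1, CCNA2, PCNA, MCM2, BUB1, CDC20) were lower in both lines, with medians of -0.79 in MDA-MB-436 and -2.27 in SUM159PT, and their part in the members' changes was not tested. Of 9 spindle proteins 2 were higher and 7 lower in MDA-MB-436 (median -0.45), and 0 were higher and 8 lower in SUM159PT (median -2.0). HMMR, a spindle-binding protein, went from a mean of 1139 to 410 in MDA-MB-436 (-1.48 ± 0.05) and from 822 to 88.8 in SUM159PT (-3.20 ± 0.10). AURKB, a mitotic kinase that phosphorylates stathmin, fell by 1.16 and 2.43 on the log2 scale. TACC3, a spindle partner of CKAP5, fell in SUM159PT from 1411 to 372 (-1.92 ± 0.06). In the other direction VASH1, which removes the last tyrosine of tubulin, rose by 1.88 and 2.03, MAPRE3, the EB1 relative best known from neurons and muscle, rose in MDA-MB-436 from 285 to 688, and CLIP2 rose in SUM159PT from 536 to 1337. Of structural relatives of the members 8 rose and 4 fell of 15 tested in MDA-MB-436, and 10 rose and 3 fell of 15 in SUM159PT. The neuronal markers tested were 4 in each line, of which 2 rose and 0 fell in MDA-MB-436 (ENO2, SYN1) and 4 rose in SUM159PT (SYP, SNAP25, TUBB3, ENO2). SYP and SNAP25 had table means of 17.5 and 10.5 in SUM159PT.

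In 4T1 cells Map1b was called higher and Ckap5 lower, the signs of both human lines, while Stmn1, Mapre1 and Mapt had the opposite sign. The difference between lines was not tested. Of 9 tested, 3 were higher and 2 lower (46.2% of all genes passed, 24.7% higher and 21.5% lower), with a median of 0.07. Mapre1 was at 1332, 1182 and 1225 with control siRNA and between 1560 and 1650 in the 6 MYC siRNA libraries (0.36 ± 0.04, limma adjusted p = 2.4e-07). Stmn1 was at 837, 738 and 754 against 897 to 945 (0.26 ± 0.05, limma adjusted p = 8.0e-05). Both were higher in every MYC siRNA library, opposite to STMN1 and MAPRE1 in the human lines. Map1b rose from 1211, 1336 and 1277 to between 1472 and 1959 (0.41 ± 0.06, limma adjusted p = 3.6e-06), and Ckap5 fell from 2191, 2373 and 2285 to between 1941 and 2119 (-0.16 ± 0.04, limma adjusted p = 0.0028). Mapt was at 88.9, 94.7 and 112 against 74.8 to 86.5 (-0.30 ± 0.11, limma adjusted p = 0.034), a call lost with DESeq2 (adjusted p = 0.093), with no filter on low values (limma adjusted p = 0.052), after quantile normalization (0.056), with siMYC1 alone (0.068) or siMYC2 alone (0.079), and without the second (0.060) or the third control (0.22), the second siMYC1 (0.062), the second siMYC2 (0.062) or the third siMYC2 library (0.054). Map1a, Map2, Map4 and Map7 did not pass, and siMYC1 and siMYC2 differed in 0 of 9 members and 0% of all genes by limma, with 0 members at an unadjusted p below 0.05 and 0 by edgeR or DESeq2. Of the 8 proliferation genes 3 were higher and 1 lower, with a median of -0.01. Myc mRNA itself overlapped between these groups, as given above.

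**Figure D2:**
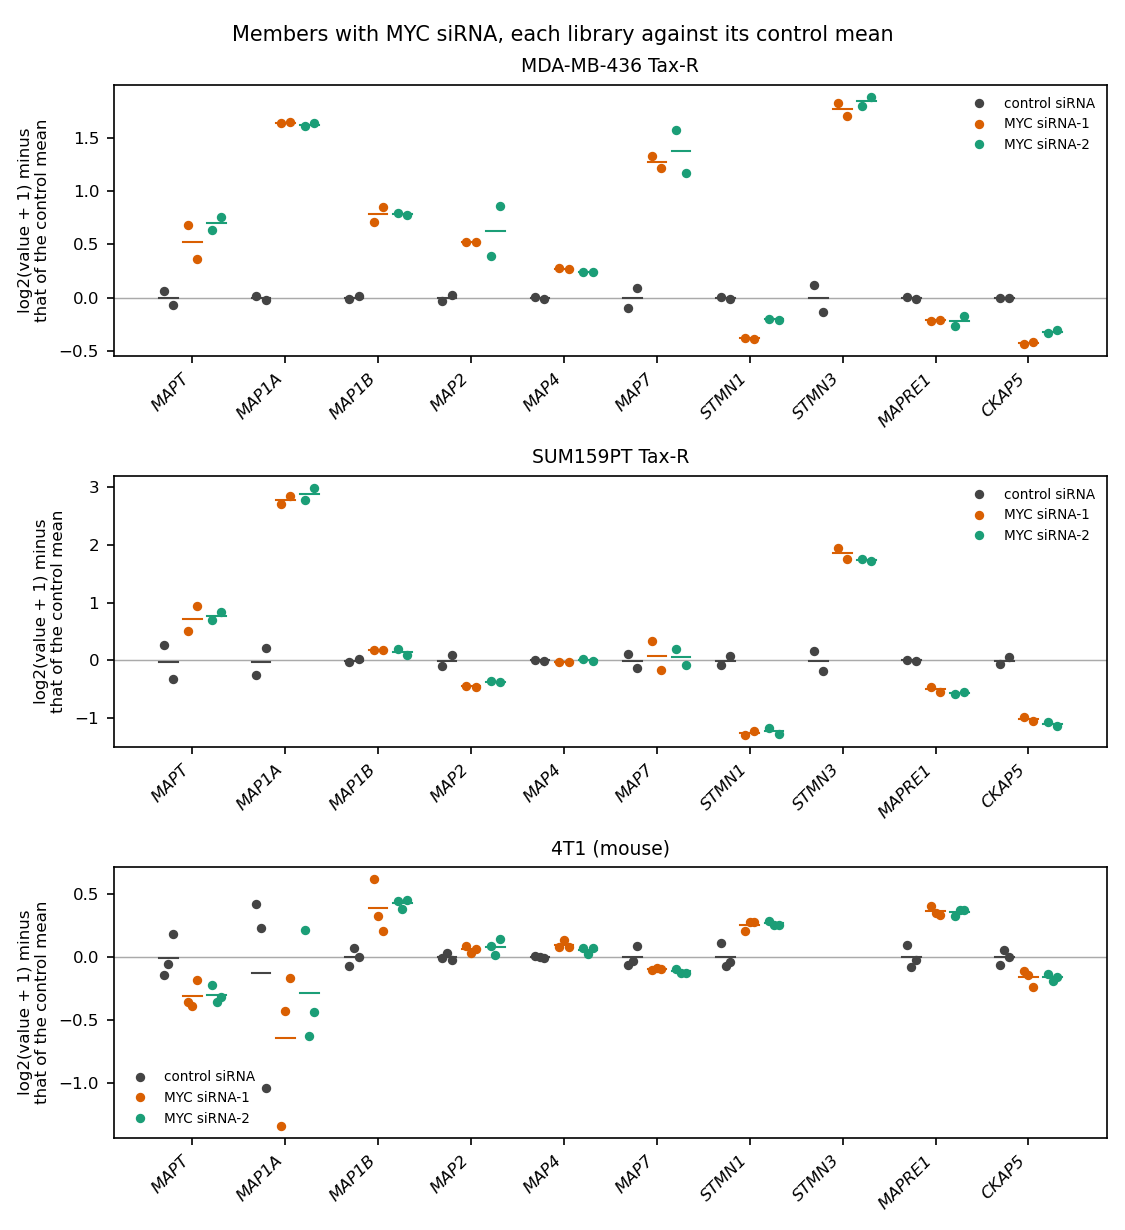
log2(value + 1) of each library minus that of the control mean for the members in MDA-MB-436 Tax-R, SUM159PT Tax-R and 4T1 cells with control siRNA (grey), siMYC1 (orange) and siMYC2 (green), 1 point per library, with lines at group means and a separate vertical scale per panel. In both human panels MAP1A and STMN3 lie far above 0 and STMN1, MAPRE1 and CKAP5 below it, while in 4T1 Stmn1 and Mapre1 lie above 0.

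With the STING sgRNA, MAP1B, MAPRE1 and CKAP5 rose and MAP7 fell in both human lines. In MDA-MB-436 3 members were higher and 2 lower of 9 tested (47.8% of all genes passed, 24.8% higher and 23% lower), with a median of -0.05 that was 0.09 after quantile normalization. In SUM159PT 6 were higher and 1 lower of 8 tested (39.1% of all genes, 19.3% higher and 19.8% lower), with a median of 0.21. MAP1B had the largest rise in MDA-MB-436: 1823 and 1940 in mock cells, 3050 and 2884 in C1, and 3146 and 3189 in C2 (0.70 ± 0.04, limma adjusted p = 1.3e-15). In SUM159PT it was at 556 and 586, then 791 and 803, then 903 and 922 (0.58 ± 0.05, limma adjusted p = 3.4e-12). No sgRNA library overlapped with mock.

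MAPRE1 and CKAP5 rose by similar small steps. CKAP5 was at 3180 and 3073 in MDA-MB-436 mock cells against 3967, 3682, 3734 and 3676 (0.27 ± 0.03, limma adjusted p = 2.3e-07), and at 2630 and 2761 in SUM159PT against 2884 and 2972 in C1 and 3430 and 3507 in C2 (0.24 ± 0.04, limma adjusted p = 5.5e-07). MAPRE1 rose by 0.30 ± 0.04 and 0.19 ± 0.04. STMN1 rose in SUM159PT, from 2323 and 2272 to between 2618 and 2868 (0.25 ± 0.04, limma adjusted p = 2.6e-07), as did MAP4 (0.14 ± 0.03). In MDA-MB-436 STMN1 and MAP4 did not pass, at -0.05 ± 0.04 and -0.06 ± 0.03.

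MAP7 was at 52.7 and 48.0 in MDA-MB-436 mock cells and between 15 and 21.5 with the sgRNA (-1.35 ± 0.23, limma adjusted p = 2.1e-05). In SUM159PT it was at 33.4 and 47.0 against 22.6 to 28.3 (-0.60 ± 0.23, limma adjusted p = 0.030), and this call was lost with DESeq2 (adjusted p = 0.22), with no filter on low values (limma adjusted p = 0.10), with C1 alone (0.16), and without the second mock (0.38), the first C1 (0.058) or the first C2 library (0.062). STMN3 fell in MDA-MB-436 from 304 and 278 to 172, 192, 159 and 162 (-0.76 ± 0.09, limma adjusted p = 4.8e-08). In SUM159PT STMN3, at 18.1 and 13.4 against 4.19 to 9.49, was below the mean of 10 needed for a test, as was MAPT at 6.29 or less.

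MAP2 could be tested in SUM159PT alone. There it was at 1060 and 1171 in mock cells, 1535 and 1567 in C1, and 1829 and 1894 in C2 (0.61 ± 0.04, limma adjusted p = 4.7e-15). In MDA-MB-436 it was near the lower limit, at 10.7 and 11.1 against 0 to 9.02, and not tested. C2 exceeded C1 in SUM159PT for 3 of 8 members (19.9% of all genes passed): MAP2 by 0.26 ± 0.05, CKAP5 by 0.24 ± 0.04 and MAP1B by 0.19 ± 0.06 (limma adjusted p = 0.019). The MAP1B call was lost with DESeq2 (adjusted p = 0.10) and without the first (limma adjusted p = 0.14) or the second C1 library (0.082) or the first (0.071) or the second C2 library (0.15). With no filter on low values none of these 3 passed. In MDA-MB-436 C1 and C2 differed in 0 of 9 members by limma (0.797% of all genes), with 1 member, MAP1B, at an unadjusted p below 0.05 and 0 called by edgeR or DESeq2.

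Spindle proteins rose with these members: 8 of 9 were higher in both lines, with 1 lower in MDA-MB-436 and 0 lower in SUM159PT, and medians of 0.26 and 0.30. CKAP2L, a spindle protein of neural progenitors, rose from a mean of 406 to 600 in MDA-MB-436 (0.56 ± 0.06) and from 353 to 471 in SUM159PT (0.41 ± 0.07). Of 16 plus-end and minus-end proteins 12 were higher and 1 lower in MDA-MB-436, where CLIP1 went from 1070 to 1455, and 7 were higher and 3 lower in SUM159PT. TTLL7, which adds glutamate chains to tubulin, rose in both, from 69.1 to 133 and from 42.6 to 94.9. Of 8 proliferation genes 4 were higher and 2 lower in MDA-MB-436, and 4 higher and 1 lower in SUM159PT, with medians of 0.09 and 0.08. Their part in the members' changes was not tested. PTPRC lay at 92.5 to 115 in SUM159PT mock cells and at 0 to 4.12 with the sgRNA, and was not lower in MDA-MB-436, at 1015 to 1028 against 1219 to 1312.

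With the STING ORF in sgRNA cells, MAP1B was called higher in both lines. In MDA-MB-436 1 member was higher and 1 lower of 9 tested (21.1% of all genes passed, 9.2% higher and 11.9% lower), and in SUM159PT 2 were higher and 2 lower of 8 (26% of all genes, 13.2% higher and 12.8% lower). The members' medians were 0.05 and 0.12. MAP1B had also risen with the sgRNA. It was at 2206 and 2360 with the GFP ORF and 2964 and 3015 with the STING ORF in MDA-MB-436 (0.39 ± 0.07, limma adjusted p = 0.00011), and at 607 and 609 against 712 and 813 in SUM159PT (0.32 ± 0.09, limma adjusted p = 0.010). The SUM159PT call was lost with DESeq2 (adjusted p = 0.056), with no filter on low values (limma adjusted p = 0.097) and without the first (0.20) or the second GFP library (0.17).

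MAP2 in SUM159PT was the clearest change with the ORF. Its values were 810 and 849 with the GFP ORF and 466 and 529 with the STING ORF (-0.74 ± 0.09, limma adjusted p = 1.2e-06), and the groups did not overlap. Its sign was opposite to that with the sgRNA in the same line, in a separate table. The other calls were close to the threshold. MAPRE1 in MDA-MB-436 was at 1844 and 1921 against 1536 and 1732 (-0.21 ± 0.07, limma adjusted p = 0.046), and was lost in edgeR (adjusted p = 0.067), in DESeq2 (adjusted p = 0.16), after quantile normalization (limma adjusted p = 0.12), with no filter (0.20), and without the second GFP (0.096), the first STING (0.50) or the second STING library (0.069).

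In SUM159PT MAP4 was at 3783 and 3877 against 3446 and 3389 (-0.16 ± 0.06, limma adjusted p = 0.042), and CKAP5 at 2717 and 2788 against 2987 and 3215 (0.17 ± 0.06, limma adjusted p = 0.049). MAP4 was lost with DESeq2 (adjusted p = 0.10), with no filter (limma adjusted p = 0.13) and without the first (0.37) or the second GFP library (0.47). CKAP5 was lost with edgeR (adjusted p = 0.068), DESeq2 (adjusted p = 0.18), quantile normalization (limma adjusted p = 0.29), no filter (0.17), and without the first GFP (0.49), the second GFP (0.34) or the second STING library (0.077). MAP7 in MDA-MB-436, at 13.8 and 9.54 against 16.8 and 20.4, did not pass. Spindle proteins were higher in 6 and lower in 0 of 9 in MDA-MB-436 (median 0.30) and higher in 5 and lower in 1 in SUM159PT (median 0.20). CAMSAP1, which protects minus ends, fell in both, from 683 to 483 (-0.50 ± 0.09) and from 402 to 221 (-0.86 ± 0.11).

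In Py230 cells with the Sting1 shRNA, doxycycline lowered Map1b, Map4, Stmn1 and Ckap5 and raised Map2 and Map1a. Of 8 tested 2 were higher and 4 lower (67.8% of all genes passed, 32.8% higher and 35.1% lower), with a median of -0.22. Map1b fell from 867, 1005 and 1081 to 506, 554 and 545 (-0.87 ± 0.07, limma adjusted p = 2.0e-11), opposite in sign to the human sgRNA lines. Map2 rose from 1352, 1353 and 1405 to 2159, 2446 and 2189 (0.72 ± 0.05, limma adjusted p = 2.0e-12). Neither gene's groups overlapped.

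Ckap5 was at 1552, 1605 and 1663 with vehicle and at 1014, 1103 and 919 with doxycycline (-0.67 ± 0.06, limma adjusted p = 1.2e-10). Stmn1 fell from 386, 347 and 367 to 301, 281 and 260 (-0.39 ± 0.08, limma adjusted p = 8.2e-05), and Map4 from 1575, 1555 and 1590 to 1186, 1191 and 1225 (-0.39 ± 0.04, limma adjusted p = 3.3e-08). Every doxycycline library lay below every vehicle library for these 3 genes. Map1a, a weakly expressed gene here, was at 10.7, 11.6 and 2.13 against 18.9, 16.6 and 18.3 (1.29 ± 0.40, limma adjusted p = 0.0068). Without the third vehicle library its change was 0.64 (limma adjusted p = 0.070). Mapre1 and Map7 did not pass, and Mapt, at 3.20 to 3.58 against 7.74 to 9.13, was below the limit for a test.

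Proliferation genes fell here as well, 7 of 8 (median -1.42), as did 8 of 9 spindle proteins (median -0.76), and Myc mRNA was at 2770 to 3281 with vehicle and 964 to 1020 with doxycycline. Their part in the members' changes was not tested. Kif11, the spindle motor, fell from a mean of 627 to 253 (-1.31 ± 0.07) and Ckap2l from 293 to 106 (-1.45 ± 0.10). Map6, a stabilizer of cold-resistant microtubules, rose from 153 to 482 (1.65 ± 0.09), and Mapre2, an EB1 relative, from 247 to 536 (1.11 ± 0.07).

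**Figure D3:**
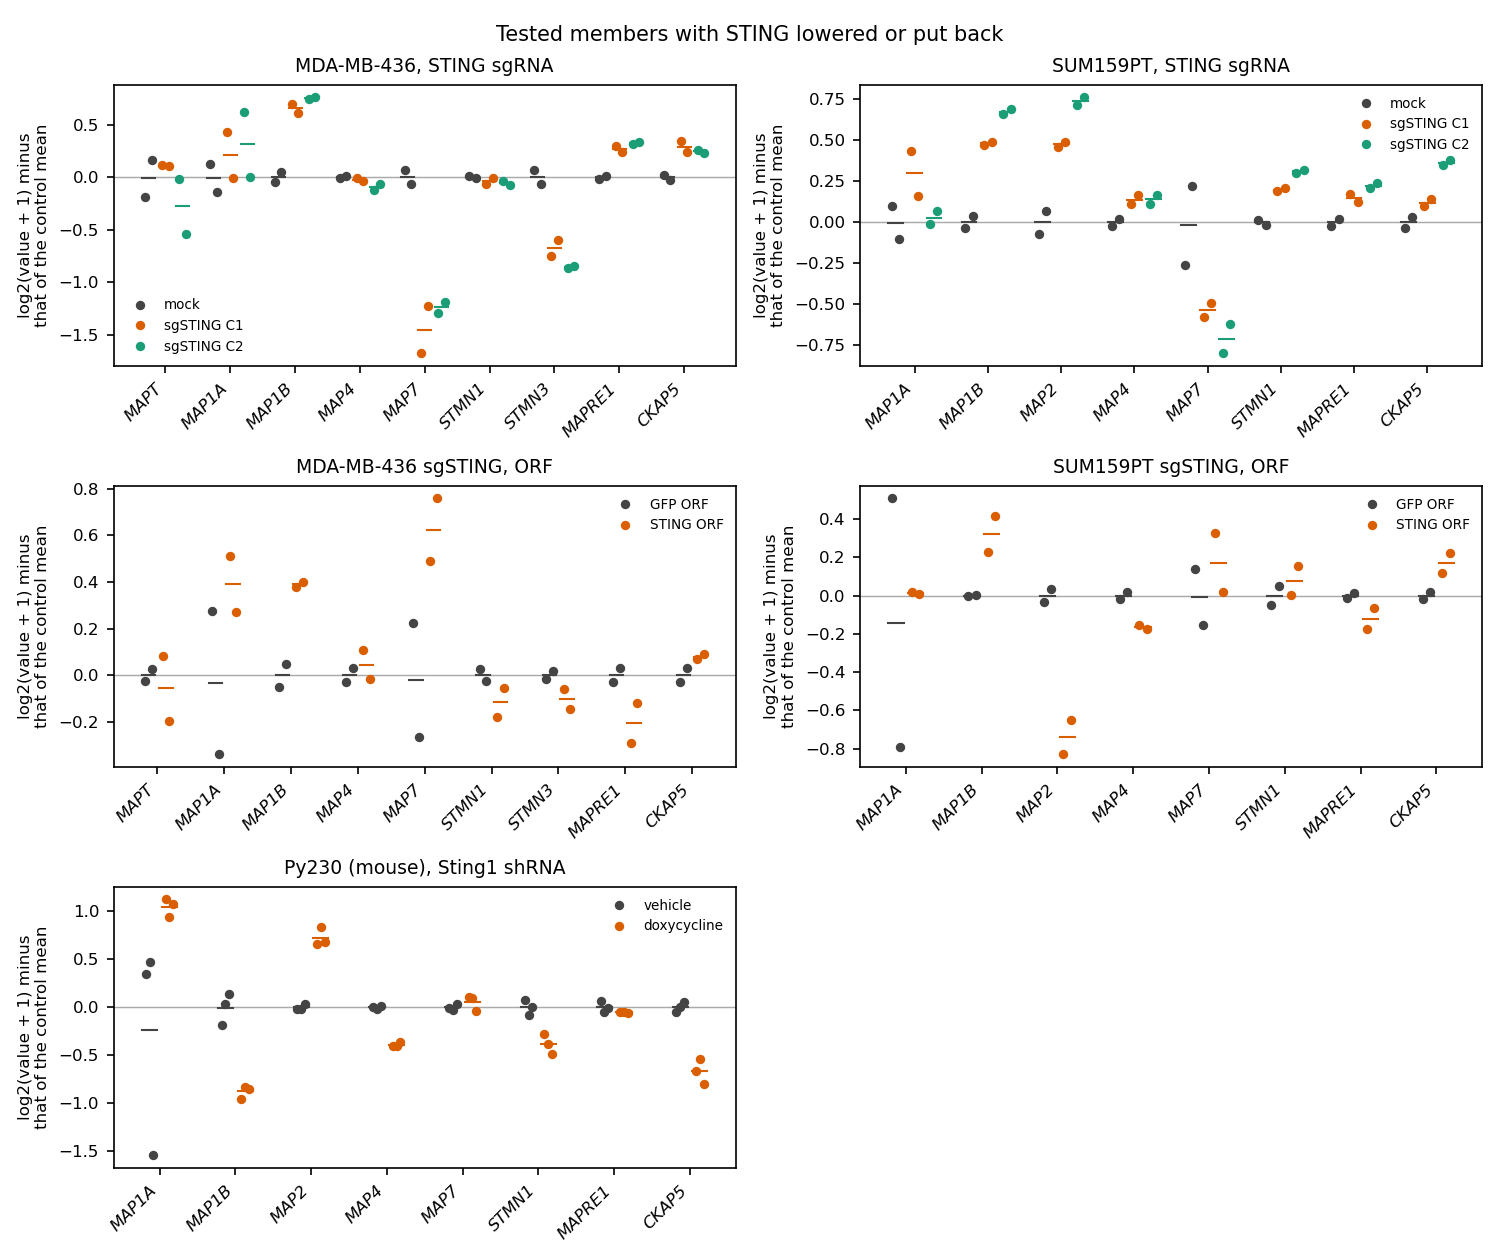
log2(value + 1) of each library minus that of the control mean for the members tested, with control libraries in grey and perturbed ones in orange and green, 1 point per library, lines at group means and a separate vertical scale per panel (mouse genes under their human symbols). MAP1B lies above 0 in all 4 human panels and below 0 in Py230, and MAP2 in SUM159PT lies above 0 with the sgRNA and below it with the STING ORF.

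Over the 10 comparisons with a control group, MAP1B was called most often, higher in 8 and lower in 1, with log2 changes from -0.87 to 0.78. Of all genes 21.1% to 69.5% were called per comparison. How often other genes were called over the 10 comparisons was not counted, so the count for MAP1B has no background beside it. The 8 include the call with the ORF in SUM159PT, which was lost in other settings. MAPT was tested in 7 comparisons, MAP2 in 8 and STMN3 in 6, so their counts of calls cannot be ranked with the rest. MAP1A was higher in 5 and lower in 0. STMN1 and MAPRE1 were each higher in 3 and lower in 3, CKAP5 higher in 3 and lower in 4, and MAP4, with the narrowest range (-0.39 to 0.26), higher in 2 and lower in 3. STMN3 had the widest range, from -3.04 to 1.81, over the 6 comparisons in which it could be tested.

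Over the 8 human comparisons the log2 changes of STMN1 and CKAP5 ran together (Pearson r = 0.92 over 8 points that share 2 cell lines), and those of CKAP5 and MAP1A ran opposite (r = -0.93). These were the highest and the lowest r among all pairs of members tested in all 8. MYC siRNA in SUM159PT gave the lowest value of STMN1 and CKAP5 and the highest of MAP1A among the 8. No r without that comparison was computed. Among 9478 genes, those most like STMN1 over the same 8 points were ARPC5 (r = 0.99), SMC1A and CCNB2, those most like CKAP5 were ANP32E (r = 0.99), KIF20B and GSR, and those most like MAP1A were TBCC (r = 0.99), MBOAT7 and POR. For MAPRE1 they were GPATCH1 (r = 0.98), GEMIN8 and TMEM248, for MAP4 PCF11 (r = 0.95), DZIP1L and NOD1, for MAP7 APOL6 (r = 0.95), SRP14 and C1RL-AS1, and for MAP1B DIDO1 (r = 0.91), ITPR2 and RELA. These are the highest of 9478 values of r over only 8 points. Unrelated genes can reach such values in a search of this size, and no link was tested.

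**Figure D4:**
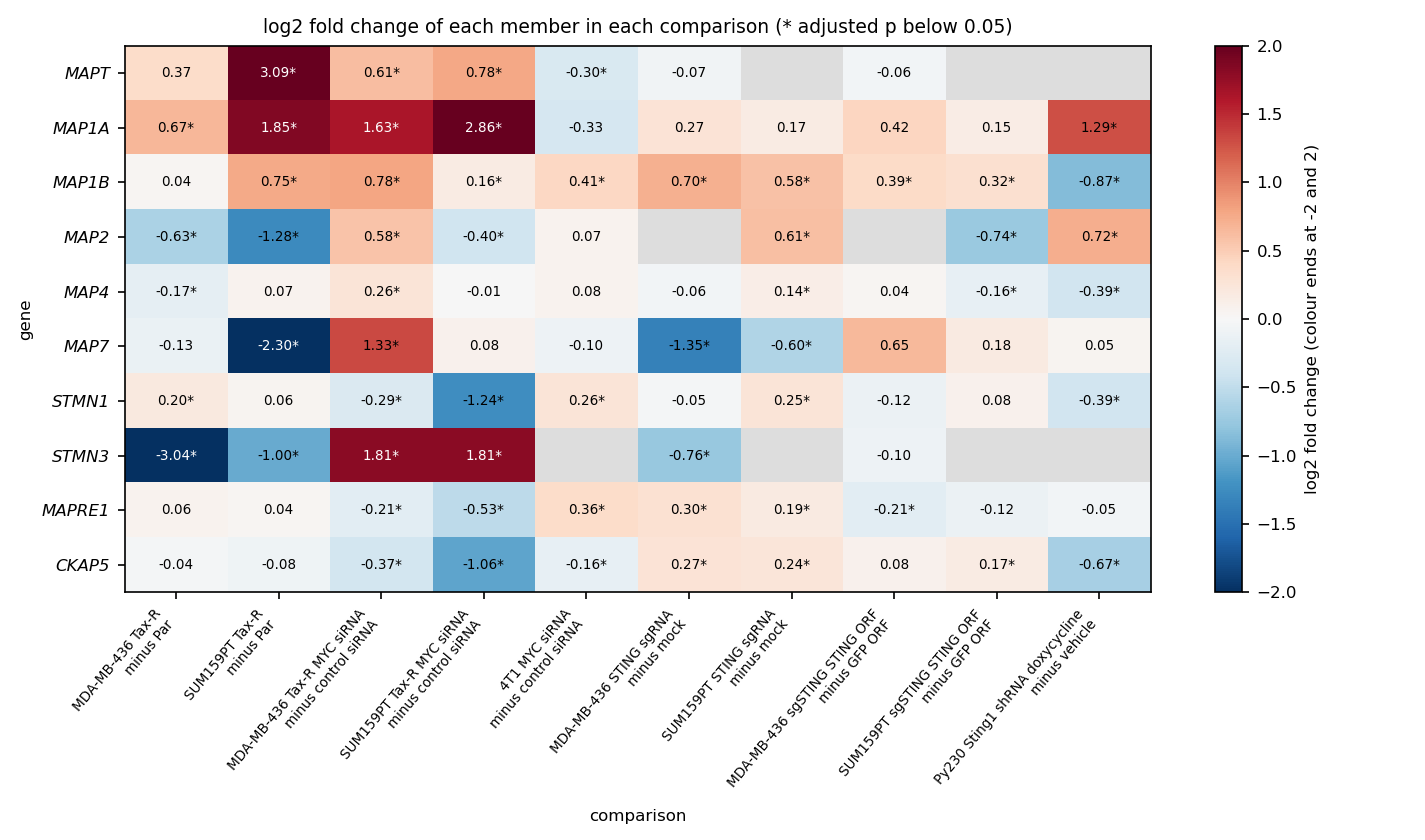
log2 fold change of each member (rows) in each of the 10 comparisons with a control group (columns), in red for higher and blue for lower, with the colour scale ending at -2 and 2, a star for limma adjusted p below 0.05 and grey for no test (mouse genes under their human symbols). MAP1B is red and starred in 8 columns, and STMN3 is dark blue for Tax-R in MDA-MB-436 and dark red for MYC siRNA.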

How the data were processed

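The deposited files give a signal per gene and library: each value is the gene's reads over a constant of that library. Whole reads were recovered for 100% of values within 0.05. Per the submitters' processing notes, the tools were DESeq2, StringTie, featureCounts and HISAT2. Their settings, strand use, genome build and annotation are not given in the sources used here. No column was left unmapped (0). Each table was fitted alone with limma-trend (limma 3.58.1, R 4.3.3) on log2(value + 1), two-sided, for genes averaging 10 or more in their table, with Benjamini-Hochberg adjusted p below 0.05. Log2 changes are on that scale, which understates changes of weakly expressed genes. Where 2 groups were perturbed, their average was set against the control group. edgeR 4.0.16 and DESeq2 1.42.0 were run on the recovered reads as alternatives, with a pseudocount of 4, no filter, quantile normalization, a replicate term, each siRNA or sgRNA group alone, and 1 library left out. The test was also tried on simulated data.

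Levels per length used exon lengths of GENCODE 29, joined over all transcripts of a gene. STMN1 and MAPRE1 each have 2 named pseudogenes, whose values reached at most 7.16. MAPT overlaps the antisense gene MAPT-AS1 (at most 12.3), and without a stated strand setting their reads may mix. Members and lists were chosen with earlier results of these data known. Besides the members, the text names at most the 2 genes of each list with the largest change among those past the threshold, averaging 50 or more and without overlap between groups, the 3 genes most like a member by Pearson r, and marker genes.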

Additional observations from a re-analysis of the deposited data

Results flagged for a closer look

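In 11 cases the groups of one line did not overlap in one direction and those of another line did not overlap in the opposite direction, under the same contrast. How many pairs were searched, and how often other genes show this, is not given here. Groups of 2 or 3 libraries can separate by chance, so the count of 11 is a list of cases and not evidence of an excess. The differences between lines were not tested, because each table was fitted alone.

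In Tax-R against parental cells, MAP4 was -0.1722 in MDA-MB-436 and 0.0671 in SUM159PT, where it did not pass. With MYC siRNA, MAP2 was 0.5752 in MDA-MB-436 and -0.4032 in SUM159PT. MAPT was 0.6097 in MDA-MB-436 and 0.7771 in SUM159PT, against -0.2985 in 4T1. STMN1 was -0.289 and -1.2373 in the human lines against 0.2616 in 4T1, and MAPRE1 was -0.2131 and -0.5292 against 0.361. MAP7 was 1.3251 in MDA-MB-436 against -0.1031 in 4T1, where it did not pass. With the STING sgRNA, MAP4 was -0.0607 in MDA-MB-436 and 0.1378 in SUM159PT, and STMN1 was -0.0451 and 0.2549, with neither gene passing in MDA-MB-436. All are log2 changes. The MYC siRNA calls of MAP2 and MAPT in MDA-MB-436 and of Mapt in 4T1 were lost in several other settings, as given above.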

How the results depend on the processing

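Correlations of same-numbered deviations ran from -0.091 to 0.11, highest for the ORF (0.057 in MDA-MB-436 and 0.11 in SUM159PT). Over all genes the replicate block raised the ORF counts from 3134 to 4400 and from 3875 to 5225. Whether same-numbered ORF libraries were handled together was not tested. With the replicate block no count of called members changed: 5 and 6 for Tax-R, 10, 8 and 5 for MYC siRNA, 5 and 7 for the STING sgRNA, 2 and 4 for the ORF and 6 for Py230. No member changed sign past a threshold under any alternative run. Of 137 members' tests, the pseudocount of 4 and the replicate block moved none across the threshold, edgeR ended 2 calls, DESeq2 11 (of the 119 to which it gave an adjusted p), no filter 12, and quantile normalization ended 6 and added 5. Each siRNA or sgRNA group alone ended 5 and added 1. Only a called test can lose its call, so neither 137 nor the 802 refits below is the number at risk. Leaving out 1 library ended a call in 34 of 802 refits and added 5.

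The ORF counts were the least stable. In MDA-MB-436 the 2 members called became 1 with no filter, quantile normalization, edgeR or DESeq2, and 1 to 2 with a library left out. In SUM159PT the 4 became 1 with no filter or DESeq2, and 1 to 5 with a library left out. The 1 member that differed between siMYC2 and siMYC1 in MDA-MB-436 became 0 with no filter, and 0 to 1 with a library left out, and the 3 between C2 and C1 in SUM159PT became 0 with no filter. The cause was not tested.

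Over all genes, DESeq2 called 5913 against 10421 by limma for MDA-MB-436 Tax-R, 4447 against 8386 for SUM159PT Tax-R, 4265 against 7316 and 3198 against 5927 for the sgRNA (3487 in SUM159PT with C1 alone), and 1090 against 3134 and 1645 against 3875 for the ORF. With no filter the ORF counts were 328 and 884, and with a library left out as low as 1247 and 1257. Between siMYC2 and siMYC1 in MDA-MB-436 the count of 30 became 0 with no filter, 95 with edgeR, 71 with the replicate block and 6 to 14 without the first or second siMYC1 or the second siMYC2 library. In SUM159PT the count of 0 became 1 or 2 without any 1 MYC siRNA library. Between C2 and C1, 122 genes in MDA-MB-436 became 31 and 3025 in SUM159PT became 969 with DESeq2, and both became 0 with no filter. The count in MDA-MB-436 was 195 with the replicate block and ranged from 5 (without the second C2 library) to 382 (without the first), and that in SUM159PT from 1221 to 1999 without any 1 C1 or C2 library.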
